A study of Mus musculus with 11 samples.

Results

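*Xbp1* encodes a transcription factor of the unfolded protein response, and its loss from hepatocytes is known to lower lipid synthesis. The 10 genes described here encode nuclear receptors that set bile acid, sterol, drug and energy metabolism in the liver: *Nr1h4* (FXR), *Nr0b2* (SHP), *Nr1h3* (LXR alpha), *Nr1i2* (PXR), *Nr1i3* (CAR), *Nr5a2* (LRH-1), *Rxra*, *Rxrb*, *Esrra* (ERR alpha) and *Thrb*. They were taken by name from the count tables, 10 of 54232 gene identifiers, and all 10 were among the 13303 genes with enough counts to be tested. Hepatocytes came from adult male C57BL/6 mice. The *Xbp1* fl/fl controls (flox) carry the loxP-flanked gene, and in *Xbp1* LKO mice (KO) Cre recombinase driven by the albumin promoter removes it from hepatocytes. Both genotypes ate chow, or a Western diet with fructose and glucose in the drinking water (HFS, high fat sugar), for at most 6 weeks. There were 3 flox-chow, 2 KO-chow, 3 flox-HFS and 3 KO-HFS libraries, where a chow library held 1 mouse and an HFS library a pool of 2. The study's methods give 1 more KO-chow mouse, whose library was not analysed here, and the counts of KO-chow 2 were deposited under the number 3. The question put to these genes was whether the transcripts of the receptors move with hepatocyte *Xbp1* loss or with diet.

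Nuclear receptors bind small lipophilic ligands and switch target genes on or off, most often as a partner of an RXR. FXR senses bile acids and induces SHP, a receptor without a DNA-binding domain that restrains the bile acid synthesis enzymes together with LRH-1. LXR alpha senses oxysterols and drives sterol export and lipogenesis, PXR and CAR drive drug-metabolising enzymes, ERR alpha drives mitochondrial genes, and *Thrb* is the main thyroid hormone receptor of the liver.

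Total counts ran from 19191032 to 23888401. *Xbp1* itself was at 194 to 301 CPM (counts per 1000000, scaled by edgeR's TMM factors) in the 6 flox libraries and at 95.7 to 135 CPM in the 5 KO libraries, and those counts cover the gene with its undeleted exons. The hepatocyte transcript *Alb* made up between 5.88% and 10.9% of a flox library and between 1.67% and 5.40% of a KO library. In bulk hepatocytes, fewer cells of a type and less RNA per cell cannot be told apart.

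The sequences upstream of 3 members are shown: *Nr0b2*, for its values between diets, and *Rxrb* and *Thrb*. These last had the smallest unadjusted p of the members between genotypes on chow (0.0144 and 0.0899 by edgeR's test). None of the 3 had an adjusted p under 0.05 with that test in these comparisons. Each run is 300 bases, 5′ to 3′ on the plus strand, from 250 bases before to 50 after the RefSeq transcription start on GRCm38.p6, and for *Rxrb* and *Thrb*, which have further starts, it is the first one. Capitals mark the nuclear receptor half-site AGGTCA, the core TCAAGG of elements bound by LRH-1, and the core GACGTG of elements bound by XBP1, on either strand. The windows are chr4:133553126-133553425 for *Nr0b2*, chr17:34031562-34031861 for *Rxrb* and chr14:17660710-17661009 for *Thrb*.
Nr0b2: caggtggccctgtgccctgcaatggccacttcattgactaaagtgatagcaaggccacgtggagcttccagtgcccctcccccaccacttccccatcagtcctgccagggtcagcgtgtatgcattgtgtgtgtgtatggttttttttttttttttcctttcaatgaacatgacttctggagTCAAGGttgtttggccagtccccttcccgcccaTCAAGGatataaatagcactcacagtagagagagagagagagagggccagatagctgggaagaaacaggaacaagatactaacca
Rxrb: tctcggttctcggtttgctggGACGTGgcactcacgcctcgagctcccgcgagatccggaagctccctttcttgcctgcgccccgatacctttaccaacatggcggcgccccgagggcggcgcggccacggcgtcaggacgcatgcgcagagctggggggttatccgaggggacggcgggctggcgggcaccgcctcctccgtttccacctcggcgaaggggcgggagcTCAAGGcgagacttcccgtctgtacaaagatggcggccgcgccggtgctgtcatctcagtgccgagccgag
Thrb: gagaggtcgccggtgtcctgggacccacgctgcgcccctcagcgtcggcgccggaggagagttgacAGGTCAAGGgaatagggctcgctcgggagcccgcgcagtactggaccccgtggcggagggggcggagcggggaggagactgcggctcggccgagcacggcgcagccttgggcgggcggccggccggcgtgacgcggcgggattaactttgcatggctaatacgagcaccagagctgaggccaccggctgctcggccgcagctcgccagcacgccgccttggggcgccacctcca
The *Nr0b2* window held TCAAGG at positions -68 and -35 from the start and no AGGTCA. That core was searched after the *Nr0b2* sequence had been read, and it stood in 14.4% of 32851 promoter windows of the same length. In *Rxrb*, GACGTG stood at position -229 and TCAAGG at -21. GACGTG was found in 6.38% of all windows and in no window of the other 9 members. In *Thrb*, AGGTCA at -184 and TCAAGG at -181 shared 3 bases in 1 run. AGGTCA was found in 16.3% of all windows and in windows of 4 members, *Nr1h4*, *Nr5a2*, *Rxra* and *Thrb*, and the longer AAGGTCA, which contains it, in 4.72% of all windows and among members in *Rxra*. Repeats of AGGTCA, inverted and 1 base apart (IR1), direct and 1 base apart (DR1) or direct and 4 bases apart (DR4), were found in 0.00913%, 0.0396% and 0.0152% of all windows and in none of the 15 windows of the members. These matches are letters in a window and no sign of binding.

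Among the 10 receptors, *Rxra*, the common partner, had the highest level per length and *Thrb* the lowest. Levels between genes are compared only as CPM per kb of annotated exon. The medians over the 11 libraries were 116 for *Rxra*, 72.9 for *Nr1h4*, 44.6 for *Nr1h3*, 40.8 for *Nr1i2*, 30.9 for *Nr0b2*, 18.0 for *Nr1i3*, 13.6 for *Nr5a2*, 9.98 for *Rxrb*, 7.77 for *Esrra* and 6.62 for *Thrb*. Of the 9 pairs of neighbours in this order, only *Nr1h4* and *Nr1h3* had ranges over the libraries that did not overlap.

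**Figure D1:**
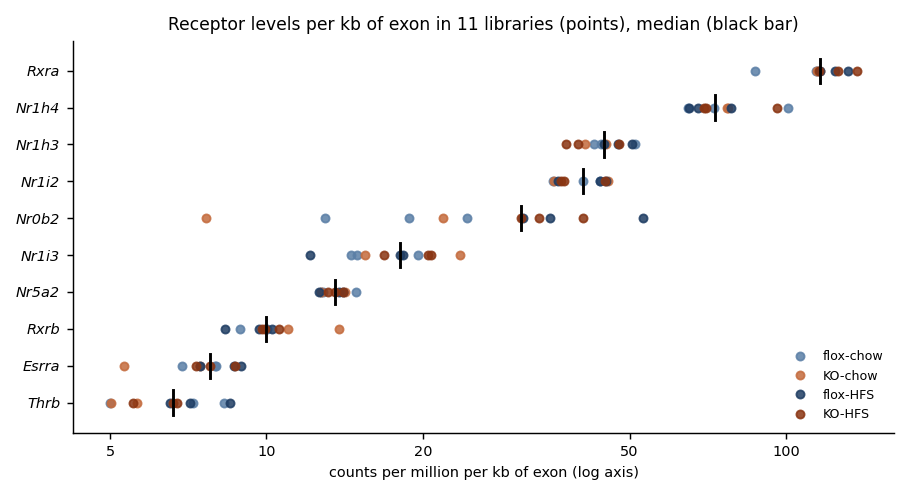
Level of each receptor in CPM per kb of exon (log axis), with 1 point for each of 11 libraries coloured by group and a black bar at the median. *Rxra* lies at a median of 116 and *Thrb* at 6.62, and the points of *Nr0b2* spread widest, from 7.65 to 53.1.

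Between genotypes, the transcripts of the receptors did not pass the test on either diet. On chow, 0 of 10 members were called between KO and flox hepatocytes, where 4.75% of all genes tested were (edgeR's quasi-likelihood test, adjusted p under 0.05 after Benjamini and Hochberg). On the HFS diet the count was 0 of 10 again, against 4.08% of all genes. DESeq2 also called 0 members on either diet, against 8.17% and 7.23% of all genes. At an unadjusted p under 0.05 there was 1 member on chow, *Rxrb*, and 0 on the HFS diet, beside 19.3% and 17.5% of all genes. All 10 log2 fold changes lay within 0.5 of 0 on both diets, with a median of -0.02 on chow and -0.03 on the HFS diet, beside medians of 0.00237 and 0.00828 over all genes. The 95% interval of the log2 fold change stayed within 0.5 of 0 for 5 members on chow and for 6 on the HFS diet. When counts were scaled to library totals, without TMM factors, the genotype fold change of the median gene moved up by 0.33 on chow and 0.26 on the HFS diet (log2). On that scale the genotype fold changes of *Nr1h4*, *Nr0b2*, *Nr1h3*, *Nr5a2* and *Esrra* on chow, and of *Nr0b2*, *Nr1h3*, *Nr1i2*, *Esrra* and *Thrb* on the HFS diet, turned from negative to positive. Over all genes, 2685 of 3000 calls were then higher in KO hepatocytes on chow, against 230 of 632 with TMM factors, and 1288 of 1483 on the HFS diet, against 256 of 543. *Rxrb* and *Nr5a2* then passed as higher on chow (0.70, adjusted p = 0.0111, and 0.32, adjusted p = 0.046, by edgeR).

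**Figure D2:**
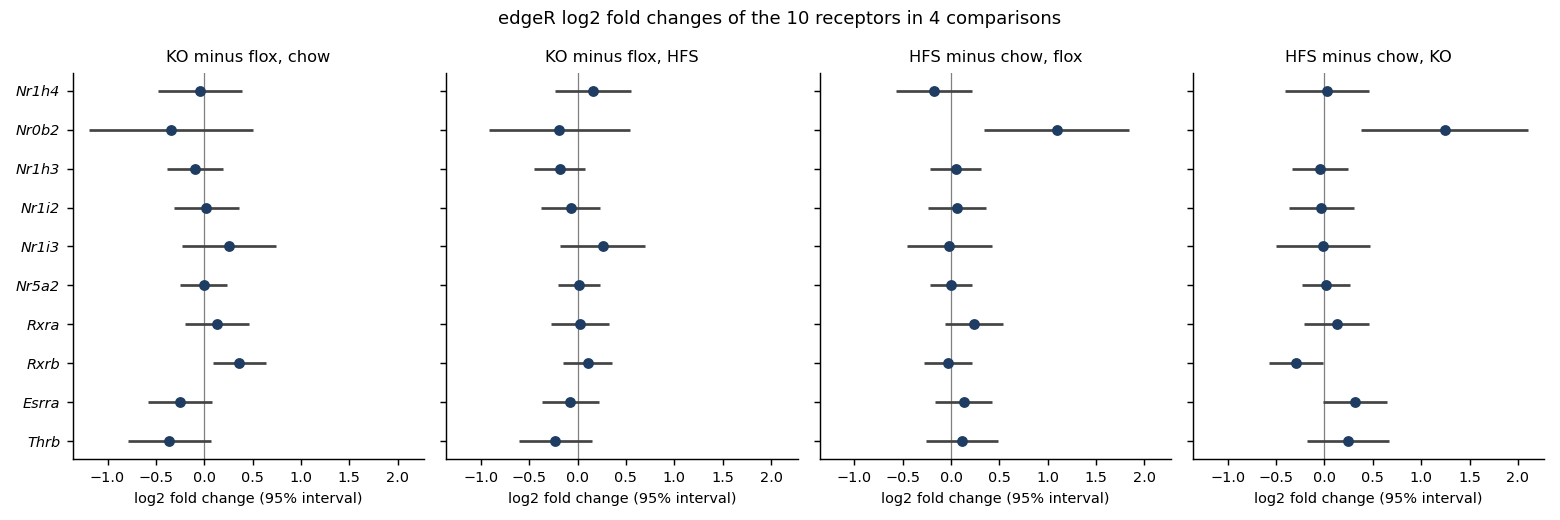
Log2 fold change (points) and 95% interval (lines) of each receptor from edgeR's quasi-likelihood fit, in 1 panel for each comparison between groups. The *Nr0b2* intervals lie above 0 in both diet panels, from 0.34 to 1.84 in flox and from 0.38 to 2.11 in KO hepatocytes, and most other intervals cross 0.

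*Nr0b2* (ENSMUSG00000037583, chr4:133553376-133556536, plus strand) was higher in every HFS library than in every chow library. Flox-chow libraries held 14.7, 27.5 and 21.3 CPM and KO-chow libraries 8.66 and 24.7 CPM. The flox-HFS libraries held 60.2, 35.3 and 39.8 CPM, and KO-HFS libraries 35.0, 37.8 and 45.97 CPM. The lowest HFS value thus lay above the highest chow value, a separation upward that 0.774% of all genes tested showed, while the genotypes overlapped on each diet. The fold change with the HFS diet was 2.13 in flox hepatocytes (95% interval 1.27 to 3.585, log2 1.09, SE 0.34) and 2.37 in KO hepatocytes (1.30 to 4.31, log2 1.25, SE 0.39). Neither passed the threshold over all genes with edgeR (adjusted p = 0.324 and 0.254) or with DESeq2 (adjusted p = 0.088 and 0.0603).

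A contrast of diet averaged over both genotypes was added after these values had been seen, so it is a description of the same libraries. It gave *Nr0b2* a fold change of 2.25 (1.51 to 3.34, log2 1.17, SE 0.26) and an adjusted p = 0.0615 with edgeR, beside 1.10% of all genes called. Leaving out any library of the other groups than KO-chow gave adjusted p = 0.0653 to 0.122 with edgeR. Without KO-chow 2, with 1 library left in that group, the averaged log2 fold change was 1.65, and without KO-chow 1 it was 0.88. DESeq2 called *Nr0b2* in the averaged contrast, with an adjusted p = 0.000531, beside 3.70% of all genes. The edgeR fit without a filter on low counts called *Nr0b2* in both genotypes and in the average (adjusted p = 4.13e-09, 1.17e-08 and 3.75e-17). Over all genes that fit called 499, 722 and 1003 in these contrasts, against 57, 8 and 146 with the filter. Its log2 fold changes of *Nr0b2* were nearly the same (1.09, 1.23 and 1.16), but the SE were smaller (0.16, 0.18 and 0.12). Over all 18 alternative fits of each genotype's diet contrast the adjusted p ranged from 4.13e-09 to 0.66 in flox and from 1.17e-08 to 0.438 in KO hepatocytes. Without KO-chow 1, which had 8.66 CPM, the log2 fold change in KO hepatocytes was 0.68, and without KO-chow 2 it was 2.20. The genotype log2 fold changes of *Nr0b2* were -0.34 on chow (SE 0.39, adjusted p = 0.693) and -0.19 on the HFS diet (SE 0.33, adjusted p = 0.846), with an interaction of 0.15 (95% interval -0.96 to 1.27).

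Markers of other liver cells also moved with the diet in the same libraries. In KO hepatocytes, all 10 tested endothelial, all 12 macrophage and all 8 tested stellate markers of the lists had positive log2 fold changes with the HFS diet, with 0 called. Their summed levels went from 26.3 to 32.4 CPM on chow to 68.8 to 104.6 CPM on the HFS diet for endothelial cells, from 25.4 to 36.8 to 59.6 to 104.9 CPM for Kupffer cells and macrophages, from 7.34 to 8.26 to 24.9 to 52.2 CPM for stellate cells, and from 5.16 to 6.57 to 11.53 to 17.66 CPM for cholangiocytes, of whose markers 3 of 7 were tested. Of these 3, 2 had positive log2 fold changes. Most of the cholangiocyte rise was *Spp1*, at 2.71 to 3.63 CPM in KO-chow and 8.23 to 14.1 CPM in KO-HFS libraries. *Sox9* was at 1.58 to 1.97 CPM and 1.30 to 2.00 CPM. In flox hepatocytes, all 10 endothelial and all 8 stellate markers were positive as well (medians 0.76 and 0.54, beside 1.55 and 2.40 in KO), as were 7 of 12 macrophage markers (median 0.04, beside 1.20), again with 0 called. Averaged over genotypes, the contrast added later, the endothelial marker *Stab2* and the stellate markers *Hgf* and *Reln* rose. The flox sums overlapped between diets for all 4 cell types, at 42.9 to 103.2 and 82.1 to 138 CPM for endothelial cells, 21.6 to 93.7 and 42.0 to 59.4 CPM for macrophages, 11.7 to 35.0 and 20.8 to 35.2 CPM for stellate cells, and 12.8 to 15.7 and 7.002 to 18.68 CPM for cholangiocytes. The hepatocyte sum overlapped between diets in KO (30790.0 to 61190.0 and 47170.0 to 78390.0 CPM) but not in flox libraries (123500.0 to 157300.0 and 98230.0 to 118400.0 CPM). No marker was at 0 in every library, and the part of these cells in the *Nr0b2* difference was not tested.

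**Figure D3:**
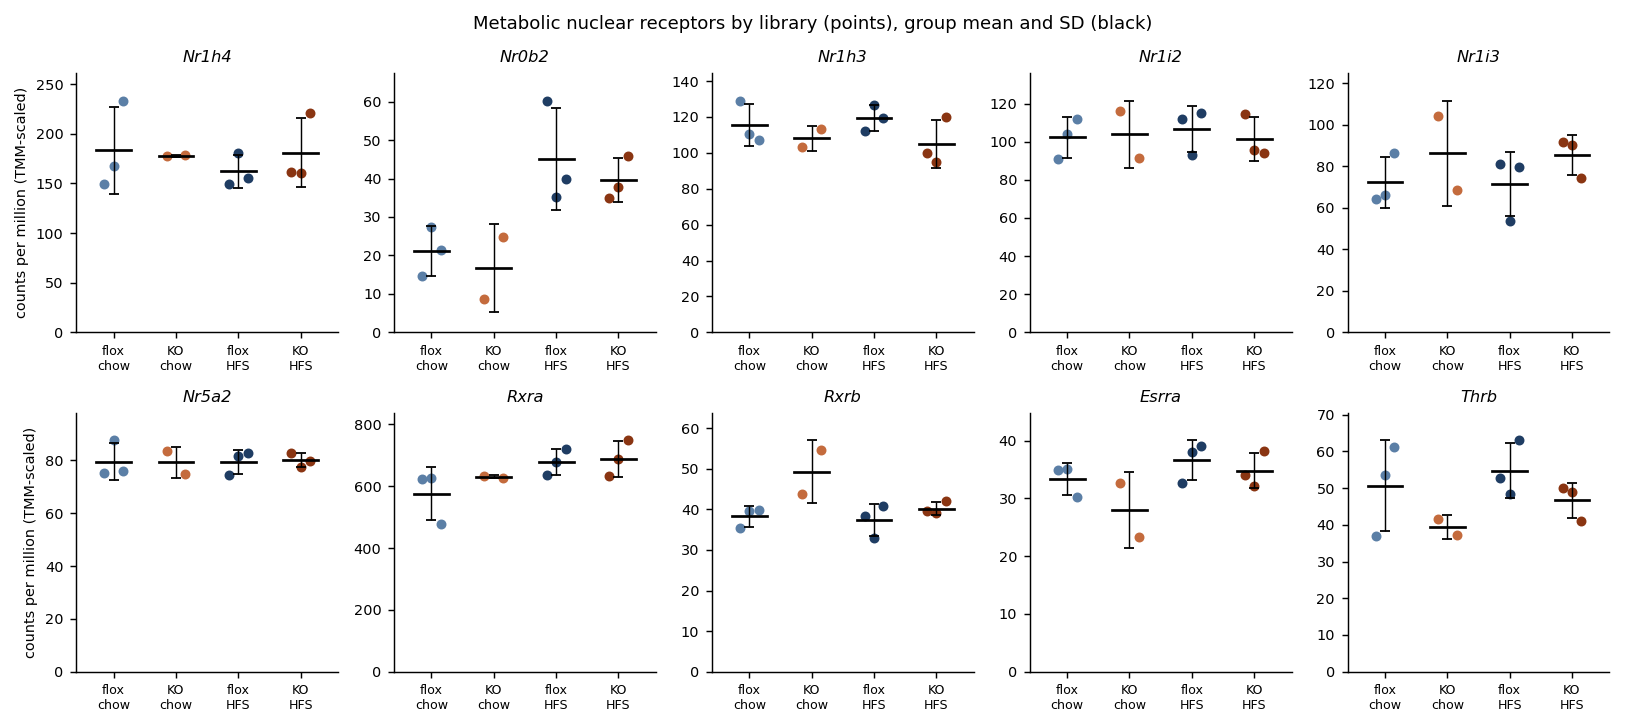
CPM of the 10 receptors, 1 panel each with its axis from 0, by group. Points are libraries, black bars are group means and whiskers are SD (n = 3, or 2 for KO-chow). The HFS points of *Nr0b2*, 35.0 to 60.2 CPM, lie above all its chow points, and groups of the other receptors mostly overlap.

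The bile acid receptor *Nr1h4* (ENSMUSG00000047638, chr10:89454234-89533585, minus strand) held its level across the 4 groups within their spread. It was at 149, 168 and 233 CPM in flox-chow libraries, 177 and 178 CPM in KO-chow libraries, 149.8, 181 and 156 CPM in flox-HFS libraries and 162, 160.0 and 221 CPM in KO-HFS libraries. All groups overlapped. Its log2 fold changes were -0.04 and 0.16 between genotypes on chow and the HFS diet, and -0.18 and 0.03 between diets in flox and KO hepatocytes, with 95% intervals that reached from -0.57 to 0.55 at their widest ends.

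*Nr5a2* (LRH-1, ENSMUSG00000026398, chr1:136842571-136960448, minus strand), which binds DNA as a monomer, had nearly equal means in the 4 groups. Its CPM were 75.1, 87.6 and 75.9 in flox-chow, 83.5 and 75.0 in KO-chow, 74.4, 81.5 and 82.8 in flox-HFS and 82.9, 77.6 and 79.97 in KO-HFS libraries. The group means, 79.5, 79.2, 79.6 and 80.2 CPM, differed by less than the SD within groups, and the 95% interval of the genotype fold change was 0.84 to 1.18 on chow and 0.87 to 1.17 on the HFS diet.

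*Nr1h3* (LXR alpha, ENSMUSG00000002108, chr2:91184061-91202834, minus strand) was slightly lower in KO libraries, within the spread. It was at 129, 111 and 107 CPM in flox-chow, 103 and 113 CPM in KO-chow, 112, 127 and 119.5 CPM in flox-HFS, and 100.1, 94.98 and 120.0 CPM in KO-HFS libraries. The groups overlapped in each comparison, and the genotype log2 fold changes of -0.10 (SE 0.13) on chow and -0.19 (SE 0.12) on the HFS diet turned positive, 0.23 and 0.07, with library totals as the scale. An exon stretch of 34 bases is shared with *Gm13783* on the same strand, so a few reads may belong to that gene.

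The drug-sensing receptors did not separate the groups either. *Nr1i2* (PXR, ENSMUSG00000022809, chr16:38248323-38294824, minus strand) was at 91.0, 104 and 112 CPM in flox-chow, 116 and 91.4 CPM in KO-chow, 112, 93.1 and 115 CPM in flox-HFS, and 114, 95.6 and 94.2 CPM in KO-HFS libraries. *Nr1i3* (CAR, ENSMUSG00000005677, chr1:171213970-171220701, plus strand) was at 64.2, 66.0 and 86.5 CPM and 104 and 68.4 CPM on chow, and at 80.9, 53.4 and 79.6 CPM and 91.6, 90.3 and 74.3 CPM on the HFS diet, in the same order of genotypes. For *Nr1i3* the genotype log2 fold change was 0.26 on both diets (SE 0.22 and 0.20, adjusted p = 0.587 and 0.578). *Nr1i3* shares 3304 exon bases with *Tomm40l* on the opposite strand, and since counting by strand is not stated in the sources used here, its values are uncertain.

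*Rxrb* showed the smallest p of any member between genotypes. This less abundant RXR (ENSMUSG00000039656, chr17:34031812-34038399, plus strand) was at 35.3, 39.6 and 39.9 CPM in flox-chow and 43.8 and 54.8 CPM in KO-chow libraries, which did not overlap. On the HFS diet, where 0 members and 26.1% of all genes had no overlap, the values were 38.4, 33.0 and 40.8 CPM in flox and 39.5, 39.0 and 42.0 CPM in KO libraries. Such a lack of overlap on chow was found for 2 of 10 members, *Rxra* and *Rxrb*, and for 31.3% of all genes tested. The log2 fold change of *Rxrb* on chow was 0.36 (SE 0.13, adjusted p = 0.136), and on the HFS diet 0.10 (SE 0.11, adjusted p = 0.722), with an interaction of -0.26 (95% interval -0.63 to 0.11, adjusted p = 0.865). Averaged over diets, a contrast added later, it was 0.23 (SE 0.085, adjusted p = 0.105), where 11.9% of all genes were called, and it ranged from 0.15 without KO-chow 2 (adjusted p = 0.437) to 0.31 without KO-chow 1 (adjusted p = 0.0475). With library totals as the scale it was 0.53 (adjusted p = 0.00246). On chow, leaving out 1 library gave log2 fold changes of 0.19 to 0.52 for *Rxrb*. Within KO mice it had a log2 fold change of -0.29 with the HFS diet (SE 0.13, adjusted p = 0.36).

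*Rxra* (ENSMUSG00000015846, chr2:27676440-27762957, plus strand) held 625, 626 and 477 CPM in flox-chow, 634.5 and 627 CPM in KO-chow, 636, 678 and 721 CPM in flox-HFS, and 633, 687 and 749 CPM in KO-HFS libraries. The third flox-chow library was the lowest of the 11. The HFS values lay above the chow values in flox libraries without overlap (log2 fold change 0.24, SE 0.14, adjusted p = 0.688), as they did for *Nr0b2*, and 13.7% of all genes had no overlap in that comparison. In KO libraries the members without overlap between diets were *Nr0b2* and *Rxrb*, against 31.1% of all genes.

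The energy and hormone receptors were the least abundant members. *Esrra* (ENSMUSG00000024955, chr19:6910977-6921813, minus strand) was at 34.9, 35.1 and 30.2 CPM in flox-chow, 32.7 and 23.4 CPM in KO-chow, 32.7, 38.0 and 39.1 CPM in flox-HFS, and 34.1, 32.1 and 38.2 CPM in KO-HFS libraries. *Thrb* (ENSMUSG00000021779, chr14:17660261-18038090, plus strand) was at 37.0, 53.5 and 61.3 CPM and 41.7 and 37.2 CPM on chow, and at 52.8, 48.4 and 63.03 CPM and 49.9, 49.0 and 41.1 CPM on the HFS diet, in the same order of genotypes. Neither separated the groups. The *Thrb* log2 fold change between genotypes was -0.36 on chow (SE 0.19, adjusted p = 0.347) and -0.23 on the HFS diet (SE 0.17, adjusted p = 0.563), and with library totals as the scale the latter became 0.03. Averaged over diets it was -0.30 (adjusted p = 0.177), and it ranged from -0.21 without flox-chow 3 (adjusted p = 0.281) to -0.39 without flox-chow 1 (adjusted p = 0.0349). With library totals it was -0.0027 (adjusted p = 0.987). *Esrra* shares 73 exon bases with *Trmt112* on the opposite strand and 91 with *Mir6990*.

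With the HFS diet, 0 of 10 members were called in flox hepatocytes, against 0.428% of all genes, and 0 of 10 in KO hepatocytes, against 0.0601%. DESeq2 called 0 members as well, against 1.20% and 1.54%. With backgrounds this low, a count of 0 says little about the receptors. At an unadjusted p under 0.05 there were 1 member (*Nr0b2*) and 2 members (*Nr0b2* and *Rxrb*), beside 8.95% and 12.7% of all genes. The other 9 members had log2 fold changes within 0.5 of 0 in both genotypes. For the interaction of genotype and diet edgeR called 0 of 10 members and 0% of all genes, 816 of which had an unadjusted p under 0.05 (no member), and DESeq2 called 0.227% of all genes and 0 members.

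The genes that these receptors control were followed in lists, whose members, like the 10 receptors, were chosen with earlier results of these data known. With the HFS diet in flox hepatocytes, 3 of 10 LXR target genes rose, where 0.135% of all genes tested did, with a median log2 fold change of 1.07 beside -0.00558 over all genes. They were the sterol transporters *Abca1* (log2 0.92, SE 0.17, adjusted p = 0.049), *Abcg5* (1.34, SE 0.25, adjusted p = 0.049) and *Abcg8*. The annotated spans of *Abcg5* (chr17:84658234-84683011, minus strand) and *Abcg8* (chr17:84676302-84700333, plus strand) overlap, and whether they share reads was not tested. *Abca1* went from 173 to 195 CPM in the 3 chow libraries to 321 to 368 CPM in the 3 HFS libraries, and *Abcg5* from 94.4 to 160.4 CPM to 276 to 398 CPM. In KO hepatocytes the diet gave 0 calls, where 0.0601% of all genes were called, and a median of 0.84, with *Abca1* at 0.79 (adjusted p = 0.19) and *Abcg5* at 0.89 (adjusted p = 0.25). Their interactions with genotype were -0.13 and -0.45 and did not pass. Averaged over genotypes, 6 of the 10 rose with the diet, beside 0.616% of all genes. All 3 calls stood near the threshold: with RLE size factors their adjusted p was 0.0514 to 0.0526, without flox-HFS 3 it was 0.226 to 0.228, and with DESeq2 it was 2.88e-05 to 9e-05. The lipogenic regulator *Srebf1* was at 162 to 318 CPM in flox-chow and 390.0 to 905 CPM in flox-HFS libraries (log2 1.355, adjusted p = 0.31), and *Lpcat3*, a phospholipid acyltransferase, had 0.12. Between genotypes 3 LXR targets fell on chow (*Fasn*, *Scd1* and *Smpdl3a*, where 3.02% of all genes fell) and 2 on the HFS diet (*Abcg8* and *Scd1*, against 2.16%). *Scd1*, a fatty acid desaturase, fell by 2.88 (SE 0.56) on chow and by 2.10 (SE 0.46) on the HFS diet on the log2 scale, while *Nr1h3* itself passed in neither comparison. For the genotype averaged over diets, 5 of the 10 LXR targets fell, where 11.9% of all genes were called in either direction.

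Genes downstream of SHP and FXR came next. In the list of 5 genes that SHP restrains, bile acid synthesis genes and the bile acid transporter *Slc10a1*, 0 were called in any comparison. At most 4.75% of all genes were called on either diet or in either genotype, so that a count of 0 of 5 says little. *Cyp7b1*, with the smallest p of the list between genotypes on chow, was at 199 to 385 CPM in flox-chow and 412 to 591 CPM in KO-chow libraries. These did not overlap, as was found for 31.3% of all genes. *Cyp7a1*, the rate-limiting enzyme of bile acid synthesis, ranged from 34.3 to 257 CPM among flox-chow libraries and from 129 to 386 CPM among flox-HFS ones, and its log2 fold change with the diet was 0.73 (SE 0.65) in flox and -0.06 (SE 0.72) in KO hepatocytes. *Cyp8b1*, which makes cholic acid, was at 343 to 851 CPM in flox-chow and 261 to 442 CPM in flox-HFS libraries (log2 -0.82, SE 0.41, adjusted p = 0.61), and at 378 to 402 CPM and 79.0 to 261 CPM in KO libraries, which did not overlap (log2 -1.07, SE 0.45, adjusted p = 0.36).

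**Figure D4:**
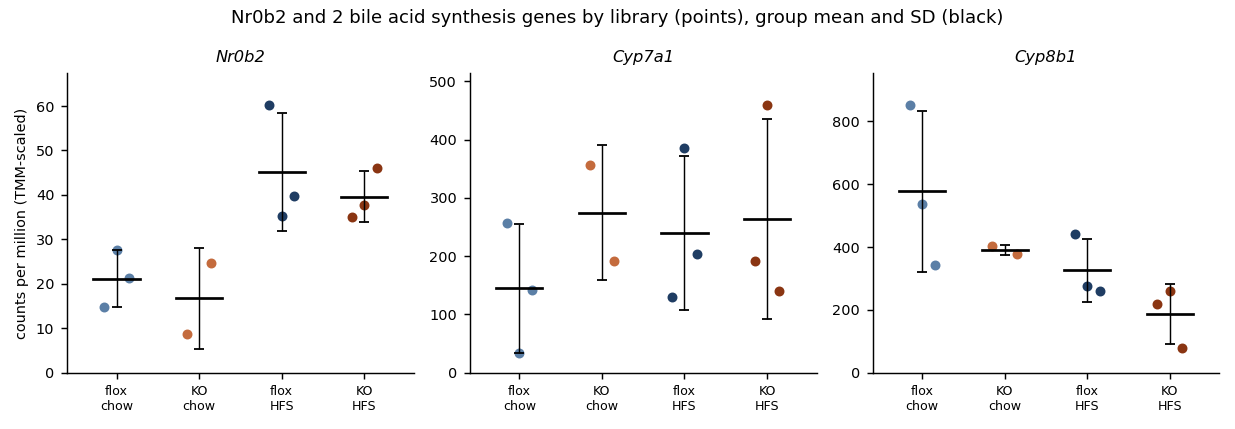
CPM of *Nr0b2*, *Cyp7a1* and *Cyp8b1* by group, with points for libraries, black bars for group means and whiskers for SD (n = 3, or 2 for KO-chow), axes from 0. *Nr0b2* separates the diets, whereas the *Cyp7a1* libraries of flox-chow mice alone span 34.3 to 257 CPM.

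Of 10 FXR targets, 8 could be tested. *Slc51a* and *Slc51b*, the basolateral bile acid exporter, were below 0.3 CPM in all 11 libraries and did not pass the filter. The canalicular exporter *Abcb11* was at 657 to 859 CPM in flox-chow and 622 to 756 CPM in flox-HFS libraries, and at 774 to 795 and 642 to 744 CPM in KO libraries, with genotype log2 fold changes of 0.06 and -0.02. The phospholipid exporter *Abcb4* had 0.13 and -0.21. Between genotypes 3 of the 8 fell on chow (*Baat*, *Pltp* and *Slc27a5*, beside 3.02% of all genes) and 3 on the HFS diet (*Fetub*, *Scarb1* and *Slc27a5*, beside 2.16%). The bile acid ligase *Slc27a5* fell by 1.01 (SE 0.22, adjusted p = 0.023) and by 1.02 (SE 0.19, adjusted p = 0.013) on the log2 scale, and *Baat* is known to conjugate bile acids. For the genotype averaged over diets, 4 of the 8 FXR targets fell, where 11.9% of all genes were called in either direction. Markers moved with the genotype too, on the TMM scale. On both diets 1 of 10 hepatocyte markers was positive (medians -0.60 and -0.61), and *Alb* fell on chow and *Apoa1* on the HFS diet. On chow 0 of 10 endothelial, 0 of 12 macrophage and 0 of 8 stellate markers were positive (medians -1.34, -0.47 and -1.24), with none called, and the cholangiocyte markers *Sox9* and *Wfdc2* fell. On the HFS diet 0 of 10 endothelial, 12 of 12 macrophage and 6 of 8 stellate markers were positive (medians -0.38, 0.61 and 0.37), with none called, and *Wfdc2* fell. Their part in the target genes' differences was not tested. With the diet, *Pltp*, a plasma phospholipid transfer protein, fell in flox hepatocytes by 2.28 (SE 0.35, adjusted p = 0.022), where 0.293% of all genes fell. *Baat*, *Fetub*, *Scarb1*, *Fasn*, *Smpdl3a* and other called genes outside the fixed rule were chosen after their values were seen.

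**Figure D5:**
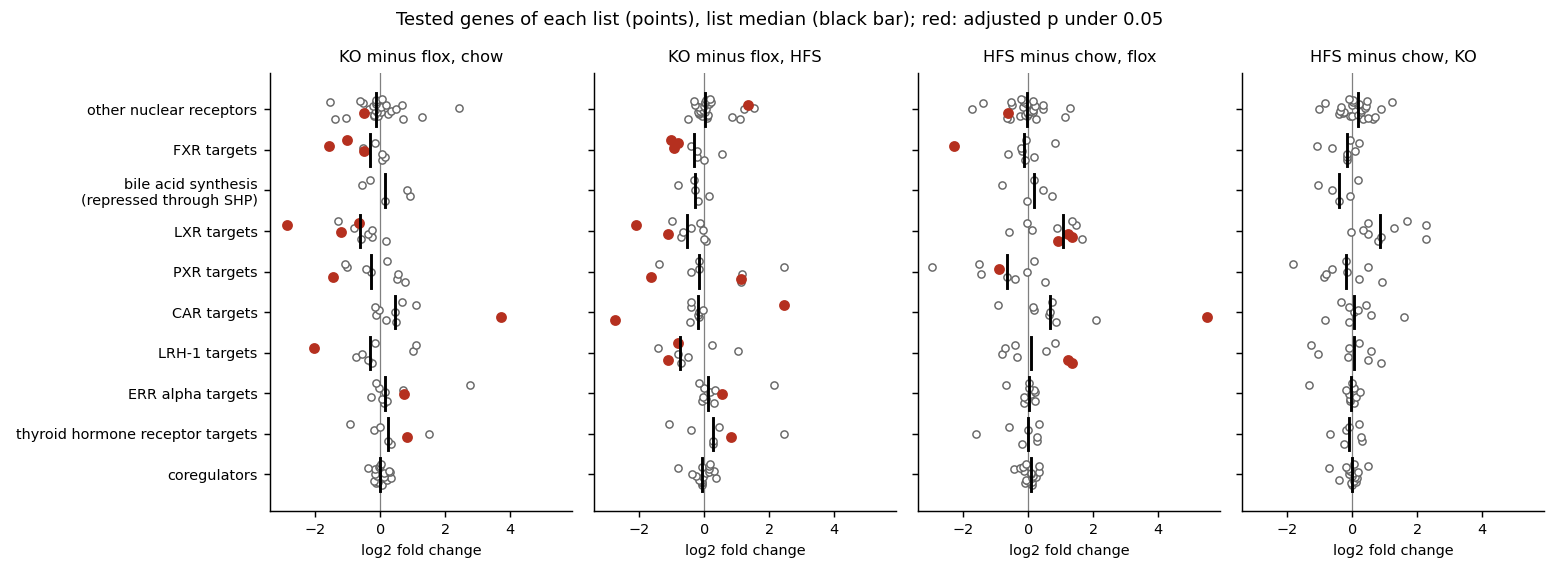
Log2 fold changes of the tested genes of each list (points) in 4 comparisons, with list medians as black bars and genes with an adjusted p under 0.05 in red. The LXR targets lie to the right in both diet panels, with medians of 1.07 and 0.84, and the 17 coregulators cluster at 0 with none called.

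The lists of the other receptors held few calls, to be read beside 1.73% of all genes that rose and 3.02% that fell between genotypes on chow, and 1.92% and 2.16% on the HFS diet. Of 9 PXR targets, *Ces2a* fell between genotypes on both diets (log2 fold change -1.44, adjusted p = 0.026, and -1.65, adjusted p = 0.0083), *Aldh1a1* rose on the HFS diet (1.132, adjusted p = 0.0063) and *Cyp3a25* fell with the diet in flox hepatocytes (-0.89, adjusted p = 0.049). The main PXR target *Cyp3a11* was at 4144.0 to 4715.0 CPM in flox-chow and 1009.0 to 2357.0 CPM in flox-HFS libraries without overlap (log2 -1.45, SE 0.34, adjusted p = 0.13), and the transporter *Slco1a4* likewise at 72.9 to 124.5 and 24.9 to 45.2 CPM (-1.52, SE 0.42, adjusted p = 0.24). Of 9 tested CAR targets, the cytochrome *Cyp2b9* rose in KO-chow hepatocytes (3.73, SE 0.87, adjusted p = 0.034) and with the diet in flox hepatocytes (5.49, SE 0.79, adjusted p = 0.017), from 0.0498 to 0.496 CPM in flox-chow libraries. On the HFS diet *Cyp2b10*, the classical CAR target, fell between genotypes (-2.76, SE 0.56, adjusted p = 0.021), at 7.33 to 23.3 CPM in flox and 0.892 to 4.24 CPM in KO libraries, while *Gstm3* rose (2.45, SE 0.32, adjusted p = 0.0027). *Cyp2c29* had -0.20.

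Of 8 LRH-1 targets, the glutaminase *Gls2* fell between genotypes on chow (log2 fold change -2.04, SE 0.46, adjusted p = 0.029) and *Scarb1* and *Abcg8* fell on the HFS diet. With the diet in flox hepatocytes *Abcg5* and *Abcg8* rose, where 0.135% of all genes did. These 2 genes also stand in the LXR list and *Scarb1* in the FXR list, so their calls are the same ones given above. The kinase *Plk3* had 1.10 (adjusted p = 0.19) and 0.25 between genotypes. Among 10 ERR alpha targets, citrate synthase, *Cs*, rose in KO hepatocytes on chow (0.72, SE 0.12, adjusted p = 0.008) and on the HFS diet (0.54, SE 0.11, adjusted p = 0.020), and *Acadm* (0.12 and 0.29) and *Cycs* (0.16 and 0.16) did not pass. Among 7 thyroid hormone receptor targets, *Gpd2*, the mitochondrial glycerol phosphate dehydrogenase, rose on both diets (0.82 on each, adjusted p = 0.013 and 0.0089), while *Dio1* (0.24 and 0.26), *Thrsp* (-0.94 and -1.08) and *Me1* (-0.01 and 0.46) did not pass. Of 17 coregulators 0 were called between genotypes on either diet or between diets in either genotype, among them *Ppargc1a* (-0.17 and 0.15 between genotypes) and *Ncor1* (0.10 and 0.05). Averaged over diets, *Ncoa1* rose and *Ppargc1b* fell between genotypes, where 11.9% of all genes were called.

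Of 38 other nuclear receptors listed, 27 were tested, and 1 was called on chow and 1 on the HFS diet between genotypes, beside 4.75% and 4.08% of all genes. Averaged over diets 5 of the 27 were called (*Esrrg*, *Nr4a2*, *Pparg*, *Esr1* and *Nr2c1*), beside 11.9% of all genes. *Nr2c1* (TR2), an orphan receptor, fell in KO hepatocytes on chow (log2 fold change -0.50, SE 0.12, adjusted p = 0.045) and with the HFS diet in flox hepatocytes (-0.61, SE 0.11, adjusted p = 0.048). It was at 27.5 to 28.2 CPM in flox-chow libraries and at 14.7 to 20.3 CPM in all 8 others. *Pparg*, a lipid-storage receptor, rose between genotypes on the HFS diet (1.353, SE 0.25, adjusted p = 0.014), from 7.69 to 12.6 CPM to 17.4 to 35.9 CPM. *Hnf4a*, *Ppara*, *Nr1h2* (LXR beta) and *Nr3c1* passed in no comparison, with genotype log2 fold changes on chow of -0.08, -0.21, 0.23 and -0.16.

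Across the lists without the markers, 31 calls were made between genotypes on either diet or between diets in either genotype. Calls of markers and of the averaged contrasts are not in this count. DESeq2 called all 31 as well. With library totals as the scale *Baat*, *Smpdl3a* and *Nr2c1* on chow, *Scarb1* on the HFS diet and *Nr2c1* for the diet in flox hepatocytes no longer passed and kept their direction. Of the 31, 4 held with each of the 11 libraries left out in turn, namely *Aldh1a1*, *Ces2a*, *Gpd2* and *Gstm3* between genotypes on the HFS diet. The other 27 were lost without at least 1 library. The highest adjusted p then came without flox-HFS 3 for the diet in flox hepatocytes (0.228, *Abca1* and *Abcg8*), without KO-chow 2 for the genotype on chow (0.274, *Nr2c1*) and without KO-HFS 2 for the genotype on the HFS diet (0.142, *Fetub*).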

How the data were processed

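Hepatocytes were purified on Percoll and sequenced as 50 bp single-end reads. The deposited values are raw counts, whole numbers for each Ensembl gene, as the authors' pipeline gave them. Their methods give a stranded mRNA kit and kallisto with tximport, while the submitters' processing notes name cutadapt 1.13, STAR, HTSeq 0.6.1p1, DESeq2 and mm10, so how reads shared between genes were assigned is uncertain. Symbols, positions and exon lengths came from GENCODE M21 on GRCm38, which held 54165 of 54232 identifiers.

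TMM factors and CPM were computed with edgeR 4.0.16 (R 4.3.3), which kept genes by filterByExpr (minimum count 10) and fitted the 4 groups to all 11 libraries with a quasi-likelihood model. P-values were adjusted over all genes tested (Benjamini-Hochberg, threshold 0.05). SE is the log2 fold change divided by the square root of F. DESeq2 1.42.0, RLE size factors, library totals, no filter, only the groups compared, replicate blocks and leaving out each library were alternatives. The code was tested on simulated counts. Replicates are separate samples in the labels, and p-values measure the spread between them. Members and lists were chosen with earlier results of these data known. Named are all members, genes set for each list, the gene of each list with the smallest p, and genes chosen after their values were seen. Sequences are RefSeq's, and 10 of 10 members had one.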

Additional observations from a re-analysis of the deposited data

How the results depend on the processing

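Groups of 2 or 3 libraries limit what could be called. The 95% intervals are those of the edgeR fit with TMM factors and do not cover the choice of scale. For *Nr5a2* between genotypes on chow the upper end was 0.24, and the log2 fold change with library totals was 0.32. RLE size factors kept direction and call for all 53 receptor fold changes. With TMM factors and edgeR, 632, 543, 57, 8 and 0 genes were called for genotype on chow, genotype on HFS, diet in flox, diet in KO and the interaction, and 1582 and 146 for genotype and diet averaged, which were added after seeing the data, with 0 receptors in each. Totals not given below stayed within 1.5 times these. The causes of the changes below were not tested, other than that fits of only the groups compared, or without a library, hold fewer samples. Of 34 calls of list genes, *Xbp1* and *Alb*, 34 passed with DESeq2, 29 with RLE size factors, 28 with library totals, 32 without a filter, 16 with only the groups compared, 25 with either replicate block and 18 to 27 without 1 library. Scaled to library totals, the totals were 3000 for genotype on chow, 1483 for genotype on HFS and 5802 for genotype averaged, and calls among the receptors 2 for genotype on chow and 5 for genotype averaged. Signs changed for *Nr1h4* 0.28, *Nr0b2* 0.022, *Nr1h3* 0.23, *Nr5a2* 0.32 and *Esrra* 0.066 for genotype on chow, *Nr0b2* 0.071, *Nr1h3* 0.075, *Nr1i2* 0.18, *Esrra* 0.19 and *Thrb* 0.027 for genotype on HFS, *Nr1h4* -0.023 and *Nr5a2* -0.033 for diet in KO, *Nr1i3* -0.054 and *Nr5a2* -0.052 for interaction (log2 fold changes). Without a filter on low counts, the totals were 1507 for genotype on chow, 1438 for genotype on HFS, 499 for diet in flox, 722 for diet in KO, 269 for interaction and 1003 for diet averaged, with 1 for diet in flox, 1 for diet in KO and 1 for diet averaged among the receptors (*Nr0b2* each time), and signs changed for *Nr5a2* 0.020 for genotype on chow, *Nr1i3* -0.012 for interaction. With DESeq2 the totals were 1115 for genotype on chow, 987 for genotype on HFS, 175 for diet in flox, 210 for diet in KO, 31 for interaction and 522 for diet averaged, with 1 for diet averaged among the receptors (*Nr0b2*). With only the groups compared, the totals were 233 for genotype on chow and 0 for diet in KO, and the sign changed for *Nr5a2* -0.0030 for diet in flox.

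Libraries with the same number came from different animals, and the correlation of their deviations from the group means was -0.199 to 0.231 over 15 pairs, so the numbers were not taken as pairs. With a replicate block, edgeR called 19 for diet in KO and 0 receptors in any comparison, and signs changed for *Nr1h4* 0.085 for genotype on chow, *Nr1h4* -0.10 for diet in KO. With KO-chow 2 numbered 3 in the replicate block, it called 53 for diet in KO and again 0 receptors, and signs changed for *Nr1i2* -0.030 and *Nr5a2* 0.018 for genotype on chow, *Nr1i2* 0.0080, *Nr1i3* 0.071 and *Nr5a2* -0.0041 for diet in KO, *Nr5a2* -0.0063 for interaction.

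Without 1 library at a time, calls over all genes ranged from 69 to 762 for genotype on chow, from 184 to 662 for genotype on HFS, from 6 to 59 for diet in flox, from 0 to 36 for diet in KO, from 846 to 1735 for genotype averaged and from 58 to 266 for diet averaged, and calls among the receptors from 0 to 1 for genotype averaged and from 0 to 1 for diet averaged. Log2 fold changes for genotype on chow ranged over 0 for *Nr1i2* (-0.16 to 0.18), *Nr5a2* (-0.085 to 0.069), *Nr1h4* (-0.17 to 0.17), *Nr0b2* (-1.29 to 0.23) and *Nr1i3* (-0.079 to 0.52). Log2 fold changes for genotype on HFS ranged over 0 for *Nr0b2* (-0.34 to 0.076), *Nr5a2* (-0.036 to 0.040), *Rxra* (-0.040 to 0.084) and *Nr1h4* (-0.0087 to 0.24). Log2 fold changes for diet in flox ranged over 0 for *Nr1i2* (-0.019 to 0.15), *Nr5a2* (-0.039 to 0.075), *Thrb* (-0.068 to 0.28), *Nr1h4* (-0.31 to 0.033), *Nr1h3* (-0.0035 to 0.13), *Nr1i3* (-0.12 to 0.15) and *Rxrb* (-0.10 to 0.048). Log2 fold changes for diet in KO ranged over 0 for *Nr1i2* (-0.19 to 0.15), *Nr1i3* (-0.28 to 0.32), *Nr1h3* (-0.15 to 0.031), *Nr5a2* (-0.050 to 0.093) and *Nr1h4* (-0.14 to 0.11). Log2 fold changes for interaction ranged over 0 for *Nr0b2* (-0.42 to 1.10), *Nr5a2* (-0.058 to 0.092), *Nr1h4* (-0.0069 to 0.33), *Nr1i3* (-0.26 to 0.33), *Rxra* (-0.17 to 0.0095), *Thrb* (-0.034 to 0.31), *Nr1i2* (-0.25 to 0.086) and *Esrra* (-0.041 to 0.44).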
